A study of Danio rerio with 4 samples.

Results

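The genes described here are the ligands, receptors and feedback inhibitors of fibroblast growth factor (FGF) signalling in zebrafish embryos. They were chosen by symbol: every gene whose name in the array's annotation, or whose current RefSeq name, begins with fgf, spry, spred or dusp, together with etv4, etv5a and etv5b. This gave 40 genes among 9665 named genes, measured by 62 of 20406 probes. NHA9 embryos came from crossing fish with the floxed transgene Tg(spi1::lox-eGFP-lox::NHA9) to fish with hsp70::Cre, so that heat shock removes the eGFP cassette and lets NUP98-HOXA9, a human leukaemia fusion gene, be made from the spi1 promoter, which is active in myeloid cells. lGl embryos came from crossing the same floxed fish to wild-type AB fish and kept the cassette. Both kinds therefore carry the floxed transgene, and both were held at 37 °C for 1 hour at 24 hours post-fertilization, returned to 28 °C and used whole for RNA at 28 hours, 4 hours after heat shock. There were 2 RNA extracts of each kind. An NHA9 and an lGl extract of the same replicate number shared a forward array (NHA9 in Cy5) and a dye swap. The number of embryos or clutches behind an extract is not given in the sources used here, so the spread between extracts may be partly technical. The NHA9 cross also differs by Cre and by its second parent, and these cannot be told apart from the fusion gene.

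FGFs are secreted proteins that bind receptor tyrosine kinases with the help of heparan sulphate. The receptor then signals through Ras, Raf and the MAP kinase ERK, and cells answer by transcribing Etv factors and their own inhibitors, among them Sprouty and Spred proteins and the phosphatase Dusp6. In zebrafish embryos of this age FGF signalling acts at the midbrain-hindbrain boundary, in the tailbud, in the ear, in the pharyngeal pouches and in the pectoral fin buds.

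All values are the deposited log ratios of the 2 channels of an array, read as log2 of NHA9 over lGl. That direction is likely from the array titles and dyes but is not stated with the values. If it is the other way, every sign turns, and folds hold only for base 2. The columns were taken as already turned to a single contrast because each forward array ran in the same direction as its dye swap. Over all probes r was 0.747 for replicate 1 and 0.465 for replicate 2, and over the 40 members it was 0.851 and 0.593. The columns also carry a pattern by dye orientation. Between replicates, r over all probes was 0.449 for the 2 forward arrays and 0.387 for the 2 dye swaps. For arrays of opposite orientation it was 0.112 (forward 1 and dye swap 2) and 0.109 (dye swap 1 and forward 2). These correlations are across probes or genes, which are not independent replicates. Each replicate is the mean of its 2 arrays (n = 2), and its mean was tested against 0 with limma over 13261 features, with Benjamini-Hochberg adjustment. All features shared a pooled SD of 0.43, so limma gives every mean the same 95% interval of ±0.59. It does not measure the spread of genes whose own SD is larger, such as spry4 (1.27) and fgf3 (0.87). A change smaller than ±0.59 could not be told from 0 for any member. The interval is not adjusted for the number of features, and some larger means did not pass after adjustment (spred2b at −0.70, dusp23b at 0.70). A ratio gives no level, so no gene can be said to be present or absent, and in RNA of whole embryos fewer cells of a type and less RNA per cell cannot be told apart.

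Of the 40 members, 1 passed an adjusted p of 0.05, the Sprouty gene spry1, which was lower in NHA9 embryos. Of all features 2.84% passed in either direction and 0.792% passed as lower, so a single call among 40 genes is near the background. At an unadjusted p under 0.05 there were 4 members, spry1, spred2b, fgf1b and dusp23b, against 10.4% of all features. The mean ratio was below 0 for 26 of the 40 (65.0%, against 47.5% of all features), and the median was −0.08, against 0.02 over all features. A mean of at least 0.5 in size was reached by 6 members, where 15.3% of all features reached it. All 4 columns were below 0 for 9 members (13.2% of all features) and above 0 for 3 members (19.4% of all features). By role the medians were −0.07 for the secreted ligands, −0.05 for the receptors, −0.31 for the Sprouty genes, −0.35 for the Spred genes, −0.04 for the MAP kinase phosphatases, −0.02 for the other phosphatases and −0.21 for the etv genes. Single replicates moved several of these: the Sprouty median was −0.02 in replicate 1 and −1.02 in replicate 2, the Spred median −0.01 and −0.69, the receptor median 0.21 and −0.30, the ligand median −0.02 and −0.27, and the etv median −0.06 and −0.23. The plot of all members by array shows how far spry1 stood from the others.

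**Figure D1:**
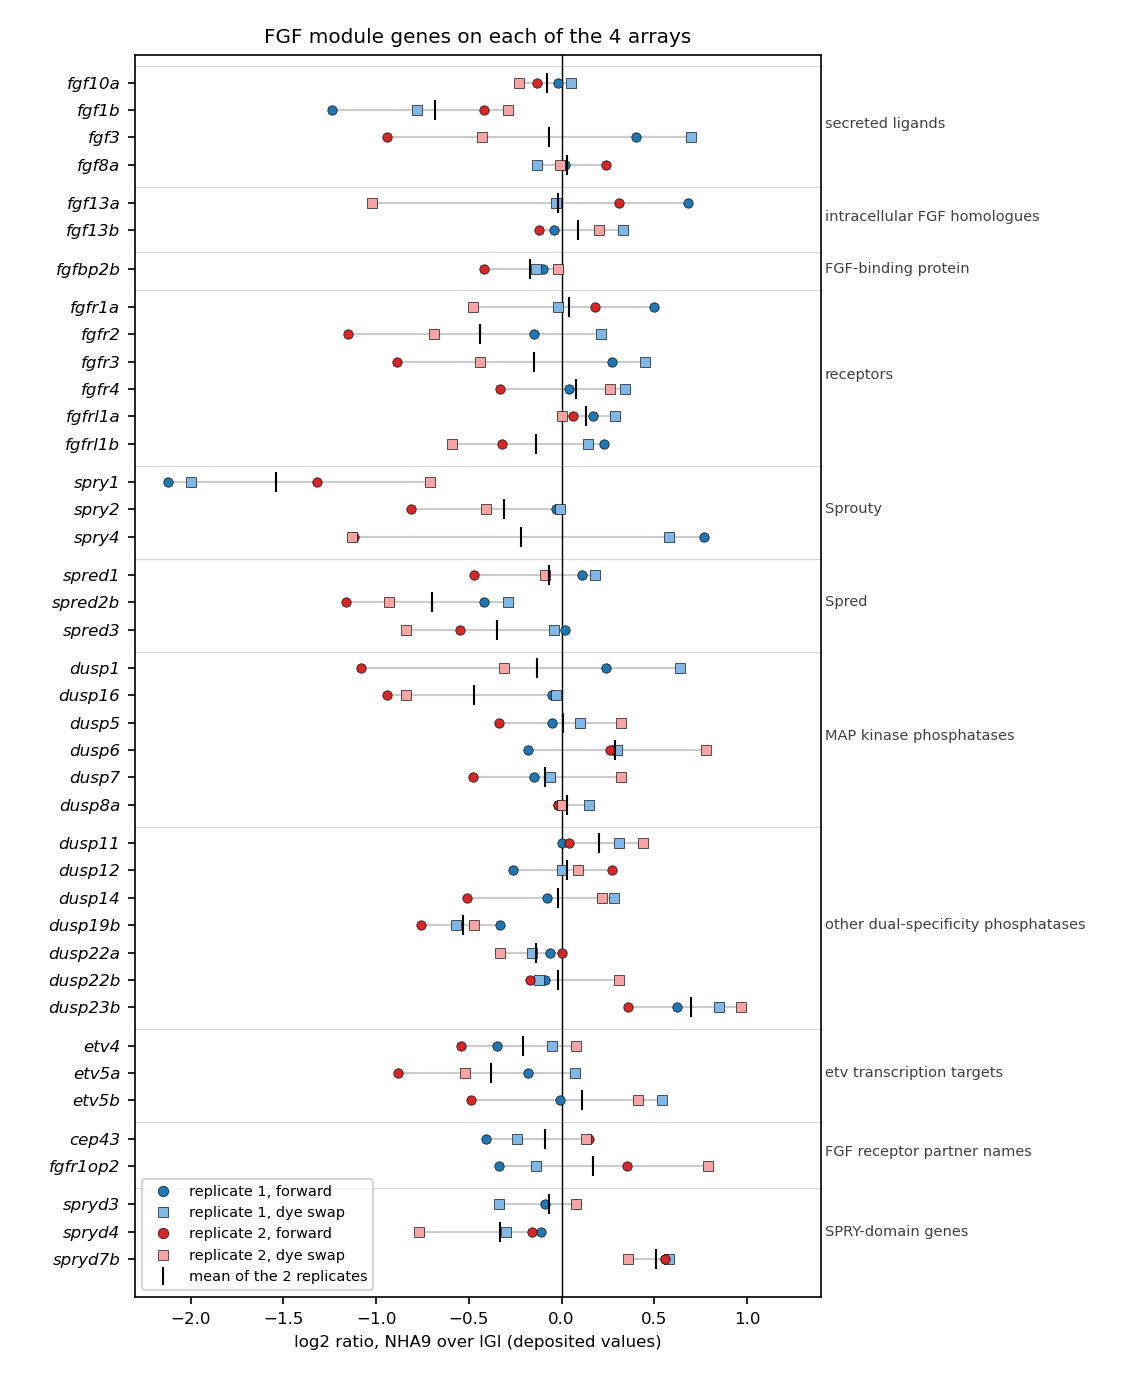
Log2 ratio of NHA9 over lGl for each of the 40 members on each array, grouped by role; circles are forward arrays, squares are dye swaps, blue is replicate 1, red is replicate 2 and the black tick is the mean of the 2 replicates. All 4 columns of spry1 lie between −2.12 and −0.71, while red and blue points separate for spry4, fgf3, dusp1, fgfr2 and fgfr3.

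The Sprouty proteins are intracellular inhibitors of receptor tyrosine kinase signalling, and their genes are induced by FGF. spry1 stood at −2.12 on the forward array and −2.00 on the dye swap of replicate 1, and at −1.32 and −0.71 on those of replicate 2. It was low on all 4 columns, and lower in replicate 1 than in replicate 2. Its mean was −1.54 ± 0.74 (SD, n = 2; 95% interval −2.13 to −0.95; limma adjusted p = 3.69e-05), 2.90-fold lower in NHA9 embryos, and it ranked 24 from the lowest of all features. The interval and p-value use the pooled SD of 0.43, which is smaller than the SD of spry1 itself, so they do not measure its spread. The spry1 ratio rests on 1 probe, and in a fit with a replicate block but no dye term it no longer passed (limma adjusted p = 0.0776; range over 11 alternatives 1.4e-05 to 0.178).

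The other Sprouty genes did not follow spry1 in the same way, a difference that was not tested. spry2 was at −0.03 (forward) and −0.01 (dye swap) in replicate 1 and at −0.81 and −0.41 in replicate 2, with a mean of −0.31 ± 0.42 that did not pass (limma adjusted p = 0.843, n = 2). spry4 was at 0.77 (forward) and 0.58 (dye swap) in replicate 1 and at −1.12 and −1.13 in replicate 2. It was thus high on both arrays of one pair of extracts and low on both arrays of the other, and its mean of −0.22 ± 1.27 did not pass (limma adjusted p = 0.920). Both spry4 probes showed this, at 0.65 and 0.71 in replicate 1 and at −1.12 and −1.13 in replicate 2.

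Spred proteins are membrane-bound relatives of the Sproutys that block Ras activation of Raf. The lowest of the 3 was spred2b, at −0.42 and −0.29 on the arrays of replicate 1 and at −1.16 and −0.93 on those of replicate 2 (forward and dye swap). All 4 columns were below 0, and replicate 2 was the lower. Its mean of −0.70 ± 0.49 (95% interval −1.29 to −0.11) did not pass over all features (limma adjusted p = 0.292, n = 2). One spred2b probe was below 0 to a similar extent in both replicates (−0.68 and −0.92), while the other had −0.03 in replicate 1, against −1.17 in replicate 2. spred3 was at 0.02 and −0.04 in replicate 1 and at −0.55 and −0.84 in replicate 2 (forward and dye swap), with a mean of −0.35 ± 0.48. spred1 was at 0.11 and 0.18 in replicate 1 and at −0.47 and −0.09 in replicate 2, with a mean of −0.07 ± 0.30. Neither passed. For all 3 Spred genes replicate 1 was above replicate 2, where 47.7% of all features were. The means of all 6 Sprouty and Spred genes were below 0, where 47.5% of all features were. In replicate 1 alone spry4 (0.68) and spred1 (0.14) were above 0, and spry2 (−0.02) and spred3 (−0.01) were near it. There spry1 (−2.06) and spred2b (−0.36) were below 0.

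Of the 4 secreted ligands measured, 0 passed (limma; 1, fgf1b, at an unadjusted p under 0.05). fgf1b, of the FGF1 subfamily, was at −1.24 (forward) and −0.78 (dye swap) in replicate 1 and at −0.42 and −0.29 in replicate 2. It was low on all 4 arrays, with a mean of −0.68 ± 0.46 (95% interval −1.27 to −0.09; limma adjusted p = 0.327, n = 2). fgf8a, the signal of the midbrain-hindbrain boundary, was near 0 on every array: 0.02 and −0.13 in replicate 1 and 0.24 and −0.01 in replicate 2, with a mean of 0.03 ± 0.12 and an interval from −0.56 to 0.62. fgf3, which acts with fgf8a in the hindbrain and ear, was at 0.40 and 0.70 in replicate 1 and at −0.94 and −0.43 in replicate 2. Its 2 pairs of extracts therefore pointed opposite ways around a mean of −0.07 ± 0.87. fgf10a, a ligand of the fin bud mesenchyme, was at −0.02 and 0.05 in replicate 1 and at −0.13 and −0.23 in replicate 2, with a mean of −0.08 ± 0.14. Its 2 probes differed in sign, at 0.12 and −0.28. fgf24 was not analysed here.

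fgf13a and fgf13b belong to a subfamily that is not secreted and that binds voltage-gated sodium channels, as known from mammals. Their means were −0.02 ± 0.48 and 0.09 ± 0.08 (SD, n = 2), neither past the threshold. The columns of fgf13a, given because of values already seen, split by dye orientation, at 0.68 and 0.31 on the forward arrays of replicates 1 and 2 and at −0.03 and −1.02 on their dye swaps. fgfbp2b, which encodes a relative of secreted FGF carrier proteins, had a mean of −0.17 ± 0.07 with all 4 columns below 0.

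None of the 6 receptor genes passed (0 by limma and 0 at an unadjusted p under 0.05), with means between −0.44 and 0.13. fgfr2 had the lowest mean. It was at −0.15 (forward) and 0.21 (dye swap) in replicate 1 and at −1.15 and −0.69 in replicate 2, a mean of −0.44 ± 0.67 (limma adjusted p = 0.711, n = 2). fgfr3 was at 0.27 and 0.45 in replicate 1 and at −0.89 and −0.44 in replicate 2, a mean of −0.15 ± 0.73. Both receptor genes were thus low in replicate 2 alone, and the 3 probes of fgfr2 and the 2 of fgfr3 ran the same way: in replicate 2 they lay between −1.16 and −0.67 and between −0.86 and −0.47.

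fgfr1a was at 0.50 and −0.02 in replicate 1 and at 0.18 and −0.48 in replicate 2 (forward and dye swap), a mean of 0.04 ± 0.28. Its 2 probes disagreed in replicate 1, at −0.12 and 0.60. fgfr4 was at 0.04 and 0.34 in replicate 1 and at −0.33 and 0.26 in replicate 2, a mean of 0.08 ± 0.16. The receptor-like genes fgfrl1a and fgfrl1b encode proteins without the intracellular kinase. fgfrl1a was at 0.17 and 0.29 in replicate 1 and at 0.06 and 0.00 in replicate 2, a mean of 0.13 ± 0.14. fgfrl1b was at 0.23 and 0.14 in replicate 1 and at −0.32 and −0.59 in replicate 2, a mean of −0.14 ± 0.46. In replicate 1 the mean was above 0 for all 6 receptor genes (0 below 0, against 47.3% of all features). In replicate 2 it was below 0 for 5 of them, against 46.0% of all features. Some of these values were near 0, such as fgfr2 at 0.03 in replicate 1 and fgfr4 at −0.03 in replicate 2. 

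Dual-specificity phosphatases remove phosphate from both threonine and tyrosine, and those that act on MAP kinases limit ERK, JNK or p38 signalling. Of the 6 measured MAP kinase phosphatase genes 0 passed in limma (0 at an unadjusted p under 0.05). dusp6, an ERK phosphatase induced by FGF in zebrafish embryos, was at −0.18 (forward) and 0.30 (dye swap) in replicate 1 and at 0.26 and 0.78 in replicate 2. Its mean of 0.29 ± 0.33 was the highest of the 6 and opposite in sign to those of the Sprouty genes. dusp1, an immediate early nuclear phosphatase gene, was at 0.24 and 0.64 in replicate 1 and at −1.08 and −0.31 in replicate 2, a mean of −0.13 ± 0.80. dusp5, which encodes a nuclear ERK phosphatase, was at −0.05 and 0.10 in replicate 1 and at −0.34 and 0.32 in replicate 2, a mean of 0.01 ± 0.02.

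dusp16, whose product acts on JNK and p38 in mammals, was near 0 in replicate 1 (−0.04) and low in replicate 2 (−0.89), with all 4 of its probes between −1.13 and −0.72 there. The ERK phosphatase gene dusp7 and the JNK phosphatase gene dusp8a had means of −0.09 ± 0.02 and 0.03 ± 0.05. The small SD of dusp7 leaves out a split within replicate 2, at −0.48 (forward) and 0.32 (dye swap), given because of values already seen. dusp2 and dusp4 were not analysed here.

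Of the 7 other dual-specificity phosphatase genes 0 passed, with 1 (dusp23b) at an unadjusted p under 0.05. dusp23b, a small phosphatase without the MAP kinase-binding region, was the highest member of all. It stood at 0.62 (forward) and 0.85 (dye swap) in replicate 1 and at 0.36 and 0.97 in replicate 2, above 0 on every array, with a mean of 0.70 ± 0.05 (95% interval 0.11 to 1.29; limma adjusted p = 0.292, n = 2). dusp19b was at −0.33 and −0.57 in replicate 1 and at −0.76 and −0.47 in replicate 2, low on every array, with a mean of −0.53 ± 0.12 (limma adjusted p = 0.563). The means of dusp11, which encodes an RNA phosphatase, dusp12, dusp14, dusp22a and dusp22b lay between −0.14 and 0.20.

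etv4, etv5a and etv5b encode ETS transcription factors whose genes are transcribed where FGF signals. etv5a was at −0.18 (forward) and 0.07 (dye swap) in replicate 1 and at −0.88 and −0.52 in replicate 2, a mean of −0.38 ± 0.46 (limma adjusted p = 0.786, n = 2). All 5 of its probes were below 0 in replicate 2, between −1.11 and −0.38. etv4 was at −0.35 and −0.05 in replicate 1 and at −0.54 and 0.08 in replicate 2, a mean of −0.21 ± 0.02. etv5b was at −0.01 and 0.54 in replicate 1 and at −0.49 and 0.41 in replicate 2, a mean of 0.11 ± 0.22. Neither passed, and both were lower on forward arrays than on dye swaps.

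The symbol rule also took 5 genes that share only letters with the family. cep43, listed on the array as fgfr1op, and fgfr1op2 are named after partners of FGFR1 in human fusion genes, and cep43 encodes a centrosomal protein. Their means were −0.09 ± 0.33 and 0.17 ± 0.57. spryd3, spryd4 and spryd7b encode proteins with a SPRY domain, a fold unrelated to Sprouty. spryd7b was at 0.56 and 0.58 in replicate 1 and at 0.56 and 0.36 in replicate 2 (forward and dye swap), a mean of 0.51 ± 0.08, and spryd3 and spryd4 were at −0.07 and −0.33. None of these 5 passed, and without them the median of the remaining 35 was −0.08.

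The 2 pairs of extracts often differed in sign, both for these genes and over all features. In replicate 1 the median of the 40 members was 0.02 and 19 were below 0 (47.5%, against 47.3% of all features). In replicate 2 the median was −0.17 and 28 were below 0 (70.0%, against 46.0% of all features). The medians over all features were 0.02 in replicate 1 and 0.06 in replicate 2. The 2 replicates had opposite signs for 21 of the 40 members (52.5%), where 44.6% of all features did. Across the 40 genes the replicates correlated at r = 0.229 (rho = 0.064), and at r = 0.047 without spry1. As a description, r over all features was 0.339 (rho = 0.208).

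**Figure D2:**
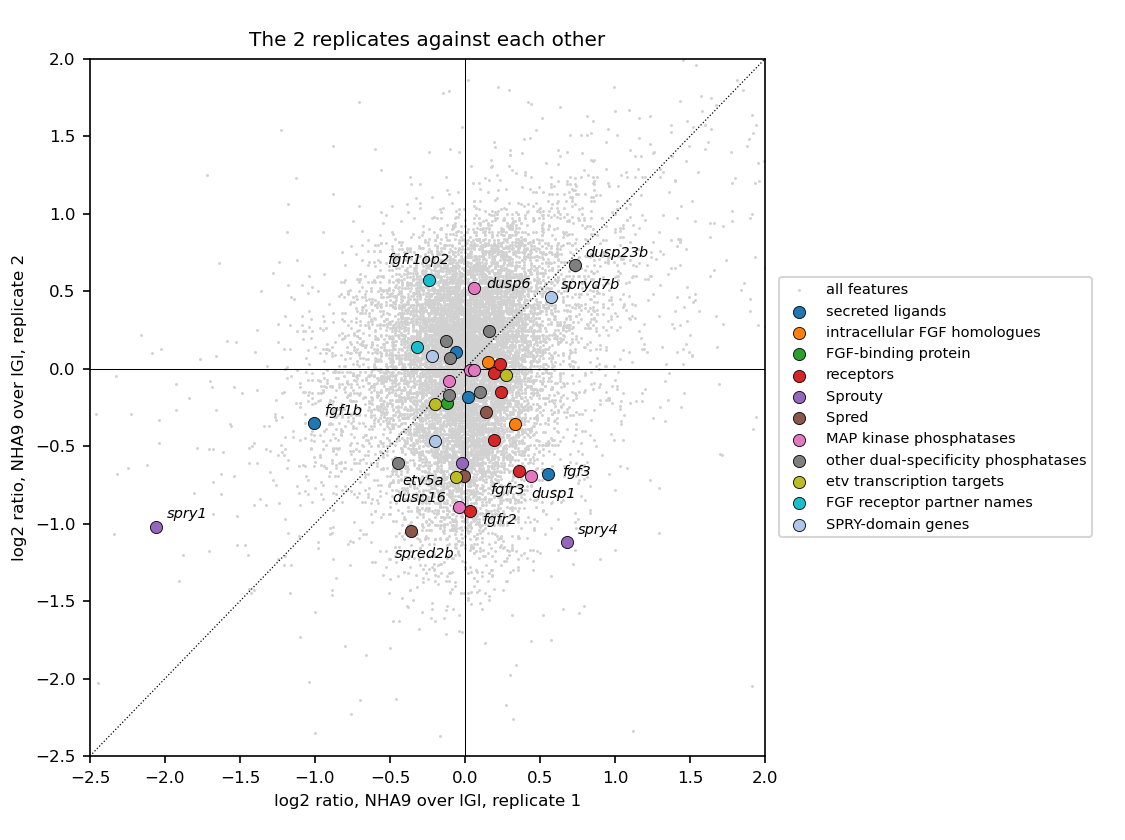
Mean log2 ratio of each gene in replicate 1 (horizontal) against replicate 2 (vertical), for all features in grey and the 40 members in colour by role, with a dotted line of equal ratios; features beyond the axes are not drawn. spry1 is low in both replicates (−2.06 and −1.02), and spry4 is high in replicate 1 (0.68) and low in replicate 2 (−1.12).

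Replicate 1 was above replicate 2 for 29 of the 40 members (72.5%, against 47.7% of all features). In size the largest differences, replicate 1 minus replicate 2, were those of spry4 at 1.80, fgf3 at 1.23, dusp1 at 1.13, spry1 at −1.04 and fgfr3 at 1.03. They are given with no test, because the arrays of a replicate share their extracts and each pair of extracts was made once.

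Heat shock genes, likewise given with no test, had lower ratios in replicate 1 than in replicate 2. Of 12 listed genes 9 were measured, and replicate 1 was above replicate 2 for 1 of the 9, against 47.7% of all features. Over the 9 genes replicate 1 had a median of −0.75 and replicate 2 one of 0.40. hspb1, given because of values already seen, split by dye orientation. It stood at 0.56 and 1.04 on the forward arrays of replicates 1 and 2 and at −1.29 and −0.72 on their dye swaps. The heat-inducible chaperone gene hsp70l had ratios of −0.94 in replicate 1, against 0.61 in replicate 2. The part of this in the replicate differences of the FGF genes was not tested.

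**Figure D3:**
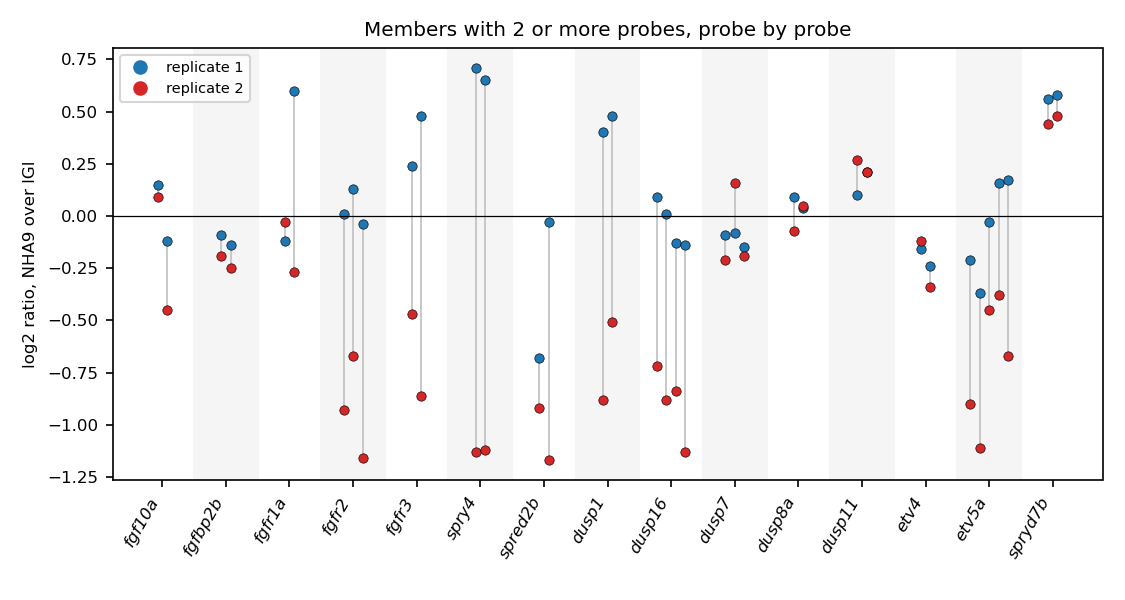
Log2 ratio of NHA9 over lGl for each probe of the 15 members with 2 or more probes; blue is replicate 1, red is replicate 2 and a grey line joins the values of a probe. The probes of spry4, fgfr2, fgfr3, dusp1 and dusp16 keep their replicate difference, and those of fgf10a and fgfr1a disagree.

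Tissues that make or receive FGF were followed through marker genes, and 0 of them passed in limma (0 at an unadjusted p under 0.05). The median ratio was −0.13 for 6 of 10 midbrain-hindbrain boundary genes, between −0.28 (pax2a) and 0.26 (en2a). It was −0.03 for 6 of 12 tailbud and presomitic mesoderm genes and −0.08 for 5 of 6 fin bud and pharyngeal arch genes. In the tailbud list replicate 1 was above replicate 2 for 3 of the 6 genes, against 47.7% of all features. The same held for 4 of the 5 fin bud and arch genes and for 2 of the 6 boundary genes. Signs differed between the replicates for 5 of the 6 tailbud genes, against 44.6% of all features. Replicate 1 was the higher for tbxta (0.80, against −0.66) and tbx16l (0.90, against −0.23). It was the lower for tbx6 (−0.40, against 0.25) and ripply2 (−0.21, against 0.25). The part of these tissues in the replicate differences of the FGF genes was not tested. Of 8 myeloid genes, which mark the cells where the spi1 promoter acts, 7 were measured. All 7 were above 0 on all 4 columns, where 19.4% of all features were. Of the 7, 3 passed as higher (mpx, lyz and mpeg1.1), where 2.84% of all features passed in either direction. Means ran from 0.46 (spi1b) to 1.16 (lyz). lyz differed by dye orientation, at 1.71 and 1.95 on the forward arrays of replicates 1 and 2 and at 0.94 and 0.03 on their dye swaps. The part of myeloid cells in the lower spry1 ratio was not tested.

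Beyond the ligands, receptors and inhibitors, 42 of 92 listed genes of the FGF pathway were measured. Of the 42, 2 passed, where 2.84% of all features did, so the count is near the background. Of 19 relay genes between receptor and ERK, 1 was lower (0.792% of all features) and 18 did not pass, with a median of −0.05. The lower gene was raf1b, which encodes a Raf kinase. It was at −0.51 (forward) and −0.37 (dye swap) in replicate 1 and at −1.74 and −1.53 in replicate 2, with 2 probes and all 4 columns below 0. Its mean was −1.03 ± 0.84 (limma adjusted p = 0.0253, n = 2), 2.05-fold lower in NHA9 embryos, and replicate 2 held most of it. That p-value uses the pooled SD of 0.43, which is smaller than the SD of raf1b itself. raf1b did not pass in a fit with a replicate block but no dye term (limma adjusted p = 0.194), after scaling of the arrays (limma adjusted p = 0.154) or by 3 others of 11 alternatives (range over all 11 0.0163 to 0.490).

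The pathway genes named from here on that did not pass were chosen after their values had been seen. braf, another Raf kinase gene, had −0.17 in replicate 1, against −1.26 in replicate 2, and the Ras gene hrasa had −0.12 and −1.22. The third Raf gene, araf, had 0.84 in replicate 1, against −0.10 in replicate 2. The ERK gene mapk3 had a mean of −0.18 and the ERK kinase genes map2k1 and map2k2a had means of 0.16 and −0.05.

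Of 13 genes that build, modify or carry heparan sulphate, 1 was higher and 12 did not pass, with a median of −0.05. Over all features 2.84% passed in either direction. The higher gene was ext2, which encodes a subunit of the heparan sulphate polymerase. It was at 2.25 (forward) and 1.73 (dye swap) in replicate 1 and at 1.88 and 0.80 in replicate 2, high on every array. The ratio of ext2 also differed by dye orientation, with forward minus dye swap at 0.80 (limma adjusted p = 0.0076). Its mean was 1.66 ± 0.46 (95% interval 1.07 to 2.25; limma adjusted p = 4.56e-06, n = 2), 3.17-fold higher in NHA9 embryos, from 1 probe. In a fit with a replicate block but no dye term it did not pass (limma adjusted p = 0.0956; range over 11 alternatives 4.5e-08 to 0.0956). ext1a and ext1c, which encode relatives of its polymerase partner, were at 0.13 and −0.35. The sulphatase gene sulf2a had −1.39 in replicate 1, against −0.14 in replicate 2, a mean of −0.76 that did not pass.

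Of 4 co-receptor and modulator genes and of 6 other negative regulators of Ras and receptor kinases, 0 passed (limma; 0 at an unadjusted p under 0.05). il17rd, also called Sef, an FGF feedback inhibitor at the membrane, had a mean of −0.27, with −0.11 in replicate 1 and −0.43 in replicate 2. cbl, a ubiquitin ligase gene of receptor kinases, had a mean of −0.48, and rasa1a, a Ras GTPase-activating protein gene, of 0.30.

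**Figure D4:**
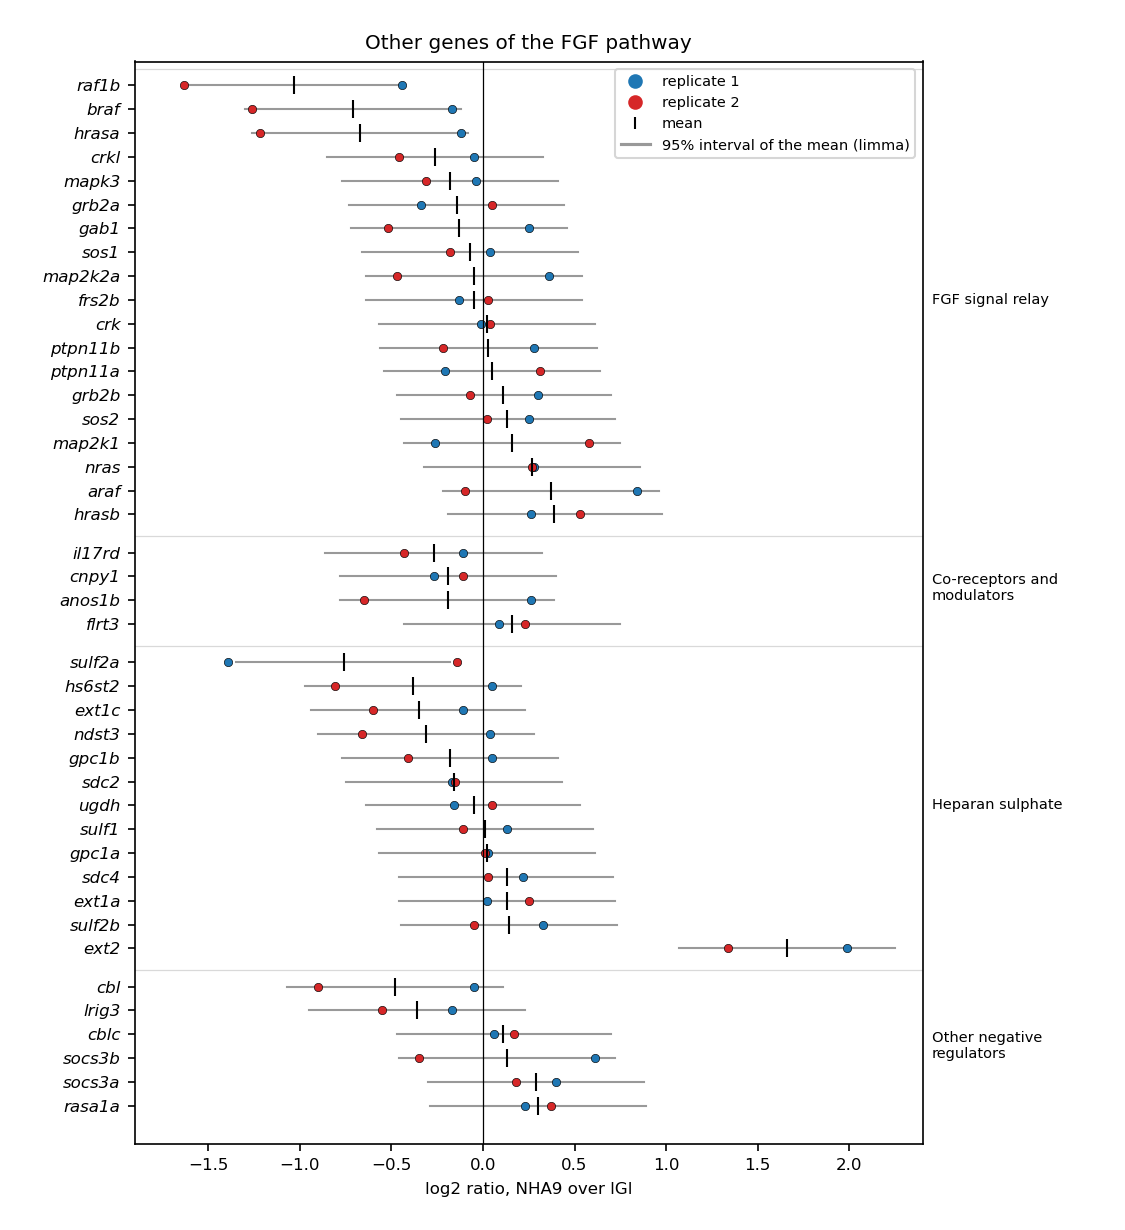
Mean log2 ratio of NHA9 over lGl (tick) with its 95% interval from limma (grey line) and the values of replicate 1 (blue) and replicate 2 (red) for the 42 other pathway genes, by list. ext2 stands alone on the right at 1.66 and raf1b is lowest at −1.03.

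Genes next to the members with means of at least 0.5 in size were examined through RefSeq's gene order in assembly GRCz12tu, over the nearest 3 measured genes on each side, a comparison chosen after the values had been seen. Over all features 2.84% passed in either direction. Of the 6 measured neighbours of spry1, 1 passed: nudt6, a Nudix hydrolase gene that lies 2 protein-coding genes away. It was higher, at 1.36 in replicate 1 and 1.14 in replicate 2, a mean of 1.25 (limma adjusted p = 0.00212) opposite in sign to spry1. Of the 6 measured neighbours of dusp23b, 1 passed as well: the organic cation transporter gene slc22a3, 2 genes away, with a mean of 1.70 (limma adjusted p = 2.45e-06). fgf1b lies next to spry4, and these 2 members were at −1.01 and 0.68 in replicate 1 and at −0.35 and −1.12 in replicate 2. None of the measured neighbours of spred2b, dusp19b or spryd7b passed.

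Under the other reading of the deposited columns, by dye, the dye-swap columns are turned before averaging. Read that way, spry1 was at −0.18 and did not pass (limma adjusted p = 0.178), and 5 of the 40 members passed, where 15.0% of all features did. These were fgf13a at 0.51, fgfr1a at 0.29, etv5b at −0.36, dusp1 at −0.29 and dusp14 at −0.27. In size none reached the mean of spry1 in the reading used above. The plot by dye orientation sets the forward arrays beside the dye swaps.

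**Figure D5:**
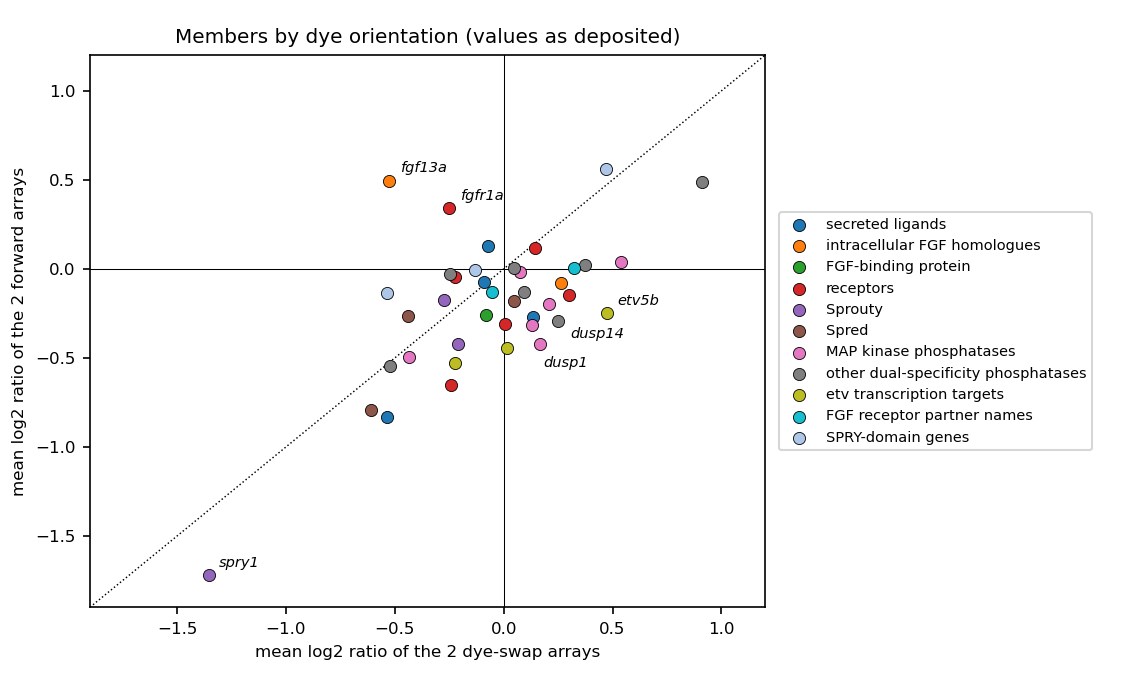
Mean log2 ratio of the 2 forward arrays (vertical) against that of the 2 dye-swap arrays (horizontal) for the 40 members as deposited, coloured by role, with a dotted line of equal ratios. spry1 is low in both orientations, and fgf13a and fgfr1a lie above 0 on forward arrays and below 0 on dye swaps.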

How the data were processed

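Trizol and RNeasy columns were used for RNA and cDNA was labelled directly, per the labels' protocols; samples low in RNA were amplified, and which ones is not stated. The deposited values are log ratios of the 2 channels per array, taken as log2. Their scanner, background correction, normalization, centring and log base are likewise not given in the sources used here. Column medians lay between −0.01 and 0.03 and values between −7.98 and 6.75. No spot intensities were used: the signal of a probe over its background is unknown, and the number of arrays limits the precision.

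Probes were named from the platform table, with symbols updated by accession, symbol or synonym through RefSeq (GRCz12tu): 16810 had 1 symbol, 0 had several and 3596 stayed unnamed. Of the members 7 carry a symbol that differs from the platform's. Probes of a gene were averaged, unnamed probes were kept as single features, and each array was averaged with its dye swap. limma 3.58.1 (lmFit, eBayes) in R 4.3.3 tested 13261 features and was tested on simulated data. The simulation gave every feature the same SD, so it could not show how calls fare where SDs differ between genes. Members, lists and tests were chosen with earlier results of these data known. Per-array values were given for members past the threshold or with means of at least 0.5 in size. They were also given for all Sprouty, Spred, receptor and etv genes and for fgf3, fgf8a, fgf10a, dusp1, dusp5 and dusp6. Those of fgf13a, and of dusp7 in replicate 2, were added after their values were seen. Replicate numbers pair the extracts within each array. Alternatives covered the reading of the dye swaps, single orientations, a replicate block, scaling, centring, probe summaries, named genes alone and single replicates.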

Additional observations from a re-analysis of the deposited data

Results flagged for a closer look

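For 5 members the ratio differed between the forward and the dye-swap arrays by a limma test of that difference (adjusted p under 0.05, against 15.0% of all features). The test is the same fit as the reading by dye above, so these 5 members are not a second result. Forward minus dye swap was 1.02 for fgf13a (adjusted p = 0.00119), 0.59 for fgfr1a (adjusted p = 0.0297), −0.72 for etv5b (adjusted p = 0.011), −0.58 for dusp1 (adjusted p = 0.0352) and −0.54 for dusp14 (adjusted p = 0.0475). Forward arrays were the higher in both replicates for fgf13a and fgfr1a, and the lower in both for the other 3. For fgfr1a the split lay mainly in 1 probe, at 1.05 and 0.42 on the forward arrays and 0.15 and −0.96 on the dye swaps. Its other probe was at −0.04 and −0.07 on the forward arrays and −0.19 and 0.00 on the dye swaps.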

How the results depend on the processing

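Of the 11 alternatives with a test, spry1 passed in 9, with means from −1.73 to −0.18 and adjusted p from 1.4e-05 to 0.178 in limma. It did not pass when read by dye (−0.18, adjusted p = 0.178) or with a replicate block but no dye term (−1.54, adjusted p = 0.0776). It was at −2.06 without replicate 2 and −1.02 without replicate 1.

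The count of members called was 5 when read by dye and 0 with the replicate block and no dye term; it was 1 in the other alternatives. A replicate block with a dye term could be fitted only with the correlation of 0.494 estimated without that term, an alternative added after seeing the data, and gave 1 member and 401 features. Over all features, 376 passed, against 1984 read by dye, 617 with forward arrays alone, 114 with the replicate block and no dye term, 174 after scaling of the arrays and 238 with named genes only. Of the other pathway genes 2 passed, against 3 by dye, with forward arrays alone and with each probe kept apart, 1 with dye swaps alone, with scaled arrays or with the replicate block and a dye term, and 0 with that block and no dye term. The count of members that differ by orientation was 17 after scaling and 11 after quantile normalization. The causes were not tested.

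With 1 replicate left out, the median ran from −1.02 to −0.02 for the Sprouty genes (−0.31), from −0.69 to −0.01 for the Spred genes (−0.35) and from −0.30 to 0.21 for the receptors (−0.05). Shifts of a median were set against the SD of the group's 2 replicate medians. Those medians are also the values with 1 replicate left out. A group whose replicates differ widely, such as the Sprouty genes, can therefore shift far and stay within that spread. The groups listed next are thus not shown to be less stable than the others. Medians that shifted beyond the spread between replicates were those of the ligands (−0.07, and −0.27 to −0.02 with 1 replicate left out), the MAP kinase phosphatases (−0.04, against −0.21 by dye, −0.26 with forward arrays, 0.15 with dye swaps, 0.03 after scaling and −0.05 to 0.04 with 1 replicate left out) and the etv genes (−0.21, against −0.44 with forward arrays, 0.02 with dye swaps and −0.23 to −0.06 with 1 replicate left out). etv5b was at −0.36 read by dye (adjusted p = 0.011), against 0.11 as reported. raf1b was at −0.95 with dye swaps alone (adjusted p = 0.0529). With 2 replicates, leaving out 1 gives a value with no test.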
